A study of Mus musculus with 31 samples.

Results

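A set of 9 genes of serine metabolism was followed, 9 of the 41255 genes listed for each library. They were taken by symbol from the total mRNA and the polysomal RNA values, and all 9 were listed in both. Of these, 3 encode the enzymes that make serine (Phgdh, Psat1, Psph), 3 encode carriers that move serine across membranes (Slc1a4, Slc38a1, Slc38a2), 2 encode the subunits of serine palmitoyltransferase (Sptlc1, Sptlc2), and Cbs encodes the enzyme that joins serine to homocysteine. A total of 8 passed the filter of a mean of at least 10 normalized counts, and Cbs did not.

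The cells were Ba/F3, a mouse lymphoid line that grows on interleukin-3. Every clone, WT and R98S alike, carried an shRNA that lowered mouse Rpl10 and received human RPL10 cDNA from a retrovirus, either WT or with R98S, an arginine-to-serine change found in T-cell leukemia, and each clone was grown from a single cell. Total mRNA was sequenced in 9 R98S libraries (clones 11, 13 and 35) and 8 WT libraries (clones 28, 29 and 36), and polysomal RNA, from pooled gradient fractions with at least 2 ribosomes, in 8 and 6 libraries of the same clones. Libraries carry a replicate number from 1 to 3, and 14 cultures have both kinds of RNA. Libraries of 1 clone are not independent, so p-values measure the spread between libraries. For WT clone 36, the total mRNA of number 1 was set aside by the study because its profile grouped with R98S, and it is not analysed here, so the WT set depended in part on profile.

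Between 8831180 and 22059792 reads were assigned to genes per library. The genes of the interleukin-3 receptor and Ptprc were present in all libraries, and of the B-lineage list Cd79a and Cd79b, chains of the B-cell receptor, had medians of 903 and 300.0 normalized counts in total mRNA, whereas Pax5 and Ebf1, transcription factors of B-cell commitment, reached at most 1.00. In R98S total mRNA Csf2rb, the shared receptor chain for interleukin-3, and Cd79b were higher, with log2 fold changes of 1.2 and 0.87, Ptprc was lower (-0.48), and Il3ra had 0.12 (adjusted p 1.8e-05, 0.00667, 0.0646 and 0.690 by limma). Among erythroid markers Hba-a1 was lower in R98S total mRNA, with a log2 fold change of -3.41, and Klf1 had -0.67 (adjusted p 4.8e-04 and 0.213 by limma). With the replicate number as a block in the fit, Klf1 was lower too, at -0.54 (SE 0.19 and adjusted p 0.0424 by limma). Of the T-cell and myeloid markers a mean of at least 10 was reached by 0 of 4 and 1 of 5 in R98S and by 1 of 4 and 3 of 5 in WT. In total mRNA Cd3g and Lyz2 were lower in R98S, with log2 fold changes of -3.06 and -2.66 (adjusted p 0.00887 and 0.0132 by limma). Cd14 had -1.14 and Mpo 0.29 (adjusted p 0.489 and 0.881 by limma). Lyz2 was lower in polysomal RNA too (-3.17, adjusted p 0.00970 by limma), where Cd14 and Mpo were not called. The 4 T-cell markers summed to 0 to 39.8 normalized counts in R98S total mRNA and to 6.60 to 189 in WT, the 5 myeloid markers to 2.76 to 410 and 50.03 to 561, the 3 listed erythroid markers to 211 to 1096 and 499 to 2281, and the 4 epithelial and fibroblast markers to 1.19 to 13.0 and 0 to 6.86. Of these, Cd4, Cd8a, Elane and Epcam stayed at or under 3.43 normalized counts in total mRNA. Other members of the T-cell and myeloid lists did not: Cd3g, Lyz2, Mpo and Cd14 reached 177, 104, 342 and 355, with medians of 5.66, 10.7, 3.49 and 2.38. The part of these markers in the differences described here was not tested, and in bulk RNA fewer cells of a type and less RNA per cell cannot be told apart. The R98S change itself was not checked, since values per gene were used here.

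Serine is made from the glycolytic intermediate 3-phosphoglycerate. PHGDH oxidizes it, PSAT1 transfers an amino group to the product, and PSPH removes the phosphate and releases serine. Cells also import serine, through carriers such as SLC1A4 (ASCT1) and the sodium-coupled neutral amino acid transporters SLC38A1 and SLC38A2. Serine then feeds protein, glycine and one-carbon units, phosphatidylserine and, through serine palmitoyltransferase, the sphingolipids. Transcription of many genes of amino acid synthesis and transport is raised by ATF4 when amino acids are scarce.

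The stretches before the starts of Phgdh and Psat1 are shown because the polysomal RNA of these enzymes was lower in R98S while that of Psph was higher, and short windows are given for Psph and for Slc1a4. The sequences are RefSeq's for GRCm38.p6, 5′ to 3′ on the strand of the gene, and bases inside annotated exons were left out of the longer stretches. Capitals mark CCAAT, or its reverse complement ATTGG, in the Phgdh, Psat1 and Psph sequences, and the reverse complement of TGATGNAA, the core of the element bound by ATF4 with C/EBP proteins, in the Slc1a4 sequence. The Phgdh stretch is chr3:98339991-98340219 (minus strand), that of Psat1 chr19:15925060-15925309 (minus strand), the Psph windows are chr5:129787315-129787344 and chr5:129787285-129787314 (minus strand), and the Slc1a4 window is chr11:20332699-20332728 (minus strand). The starts are those of RefSeq. The Psat1 stretch and the Psph windows lie inside the gene spans of GENCODE M21, which begin further upstream, at 15947337 and 129787449.
Phgdh: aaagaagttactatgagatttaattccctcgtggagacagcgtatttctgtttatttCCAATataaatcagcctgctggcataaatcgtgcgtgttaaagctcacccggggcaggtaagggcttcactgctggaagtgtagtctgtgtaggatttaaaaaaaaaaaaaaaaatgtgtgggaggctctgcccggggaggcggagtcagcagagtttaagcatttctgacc
Psat1: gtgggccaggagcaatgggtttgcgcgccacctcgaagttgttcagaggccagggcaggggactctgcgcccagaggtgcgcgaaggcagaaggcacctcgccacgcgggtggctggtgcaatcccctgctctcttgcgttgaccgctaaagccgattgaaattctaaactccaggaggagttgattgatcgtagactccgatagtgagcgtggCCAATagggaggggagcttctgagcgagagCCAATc
Psph, upper window: acagagcacctccATTGGgtggcgaccctc
Psph, lower window: ctgccgcccgctgATTGGcttaatccaacg
Slc1a4: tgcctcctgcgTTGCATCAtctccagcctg
Both strands were searched from 250 bases before to 50 bases after each start. TGATGNAA was found in 1304 of 32851 such windows (3.97%), and in 1 of the 9 windows that matched these genes, that of Slc1a4, where it crosses the annotated start. Psat1 has 2 of these windows, and Slc38a1 was not matched. CCAAT was found in 12289 windows (37.4%) and in 7 of these 9, not in that of Slc38a2 or the second of Psat1. A match of letters is not a measured site.

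Per kilobase of transcript, the enzymes of serine synthesis were far from equal in WT cells. The order of means in WT total mRNA was Psat1, Phgdh, Slc38a2, Slc38a1, Sptlc2, Sptlc1, Slc1a4 and Psph, with Cbs at the floor. Psat1 had 4222 ± 1735 normalized counts per kilobase of its longest coding transcript (SD, n = 8), Phgdh 2041 ± 1110.0 and Psph 37.9 ± 7.10. Psph was thus the lowest of the 8 measured genes in WT total mRNA, below Slc1a4 in 8 of 8 libraries and with no overlap of their ranges. In R98S total mRNA Psph had 163 ± 70.4 per kilobase (SD, n = 9) and stood above Slc1a4 (86.5 ± 43.1) in 7 of 9 libraries, with overlapping ranges. This order depended on the length used: per kilobase of all annotated exons Psph had 65.3 ± 28.2 and stood above Slc1a4 in 3 of 9 libraries. In R98S polysomal RNA Psph, at 309 ± 99.0 per kilobase (SD, n = 8), was next to Sptlc2 at 313 ± 41.4, and each was the higher of the pair in 4 of 8 libraries. Per kilobase of all exons Psph had 123.9 ± 39.6 and lay below Sptlc2 (259 ± 34.3) in every one of these libraries. By the longest coding transcript, Psat1 exceeded Phgdh in every library of both genotypes and both kinds of RNA, by a ratio of 1.21 to 3.81 in WT total mRNA and of 1.70 to 2.87 in R98S. By all exons it did so in 7 of 8 WT total mRNA libraries, with ratios of 0.976 to 3.08, and in every library of the other groups. Among the other neighbours in the WT total mRNA order, Slc38a2 exceeded Slc38a1 in 8 of 8 libraries by either length, with overlapping ranges by the longest coding transcript. The other neighbours moved with the length: Slc38a1 exceeded Sptlc2, and Sptlc1 exceeded Slc1a4, in 8 of 8 libraries by the longest coding transcript and in 6 of 8 by all exons. Phgdh exceeded Slc38a2 in 7 of 8 and 8 of 8 libraries by these lengths, and Sptlc2 exceeded Sptlc1 in 5 of 8 and 7 of 8. With the length of all exons the order of means in WT total mRNA stayed as given, and Psph had 15.2 ± 2.84 per kilobase there.

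**Figure D1:**
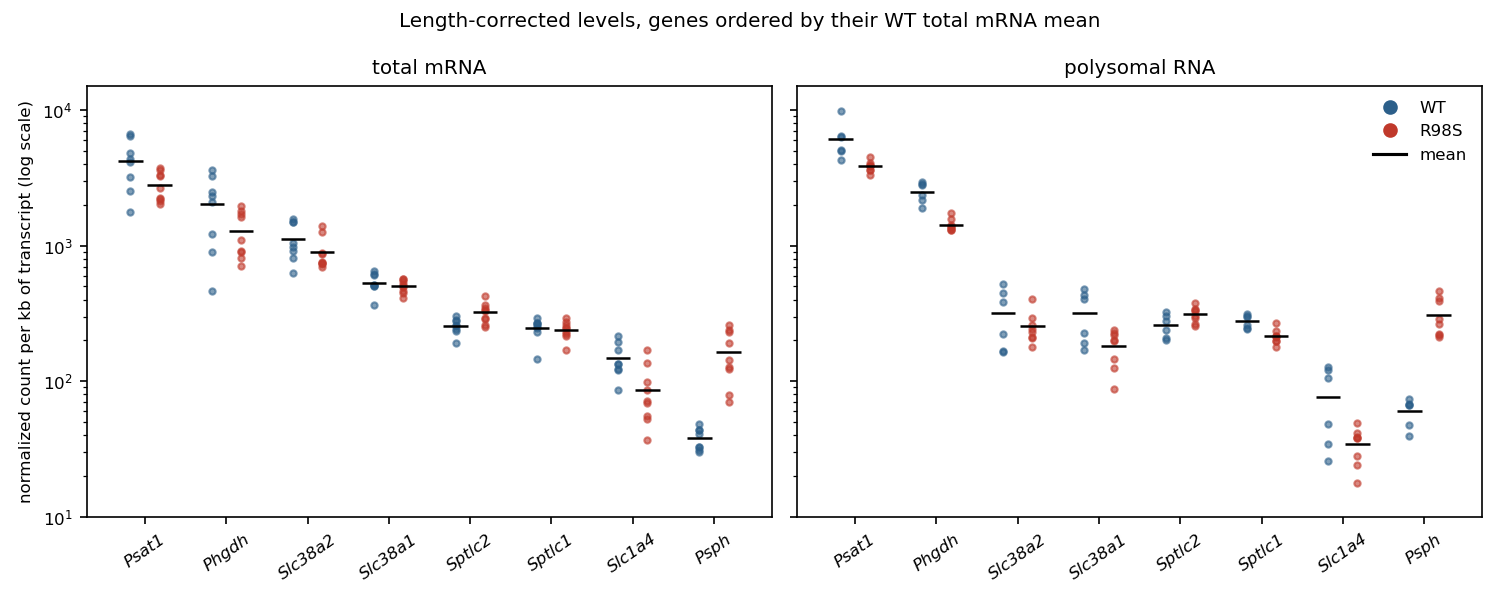
Normalized counts per kilobase of the longest coding transcript (log axis) for 8 genes in total mRNA and polysomal RNA, 1 point per library, blue for WT and red for R98S, with black bars at the means. Psph is the lowest gene in WT total mRNA (37.9 on average) and lies between 70.9 and 261 in R98S.

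Psph was the one enzyme of the pathway with more RNA in R98S than in WT. Over all genes tested by limma on log2(value + 1), 30.3% were called at an adjusted p under 0.1 in total mRNA and 13.5% in polysomal RNA. Of the 8 genes, 3 were called in total mRNA (Psph and Sptlc2 higher, Slc1a4 lower) and 3 in polysomal RNA (Psph higher, Phgdh and Psat1 lower). The 8 genes had a median log2 fold change of -0.18 in total mRNA, beside 0.0035 over all genes, and of -0.49 in polysomal RNA, beside -0.021. With the replicate number as a block the calls were 5 of 8 in total mRNA (background 38.4%) and 7 of 8 in polysomal RNA (background 30.9%). Libraries of the genotypes did not overlap for 1 of the 8 genes in total mRNA (Psph) and for 2 in polysomal RNA (Psph and Phgdh), while 3.53% and 4.96% of all genes did not overlap.

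**Figure D2:**
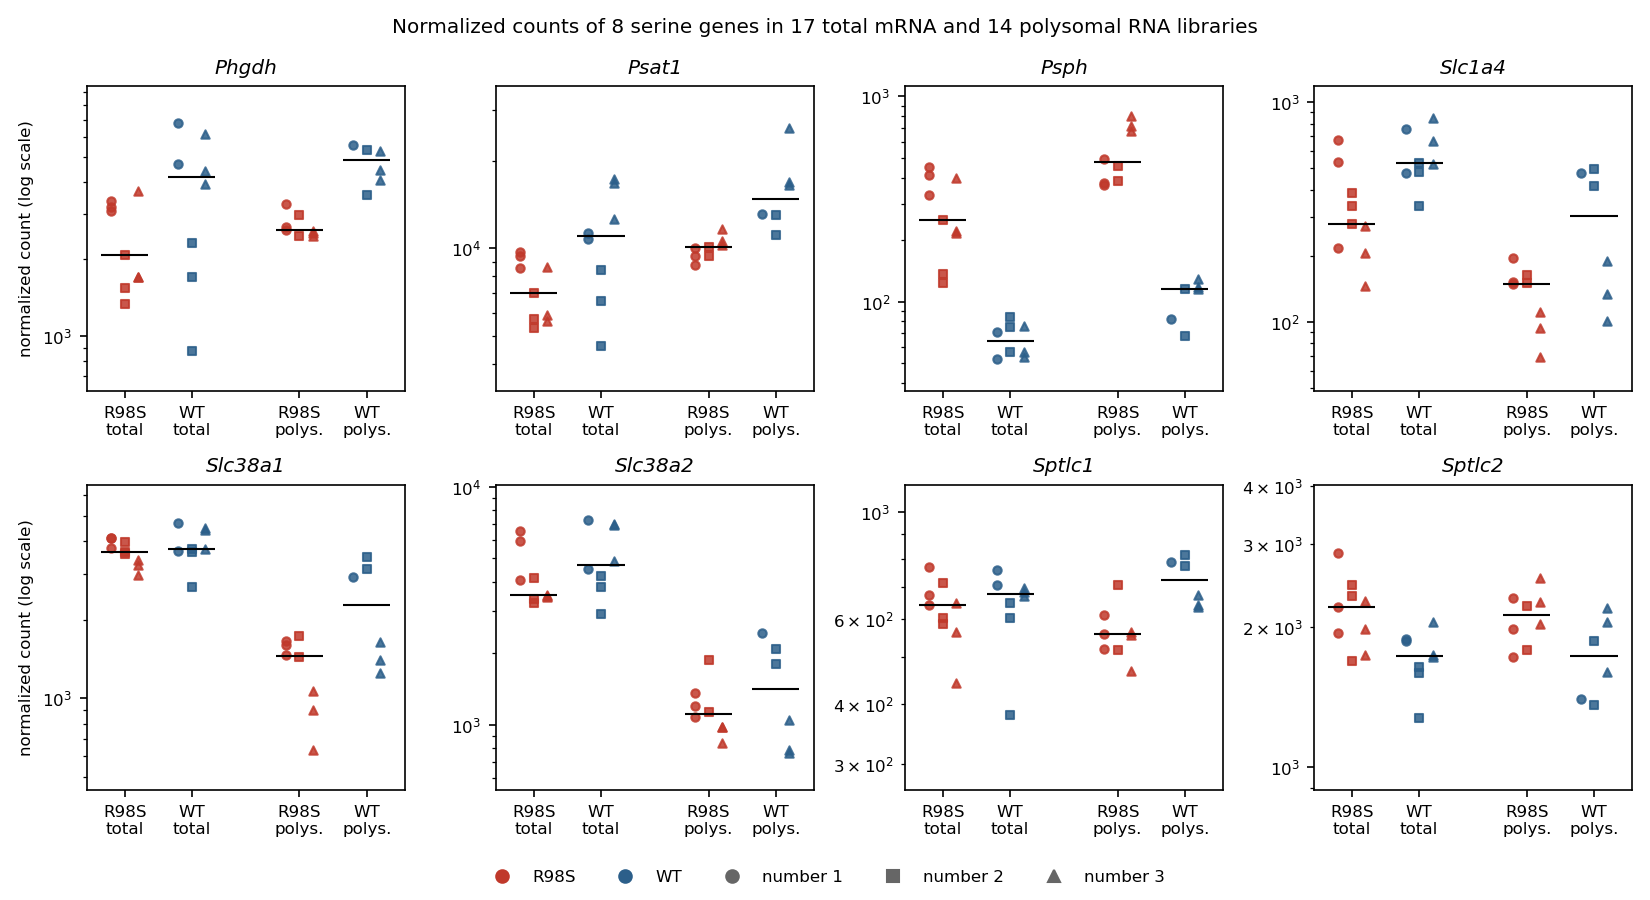
Normalized counts (log axes, scaled per gene) of 8 genes, 1 point per library, red for R98S and blue for WT, with symbols for the replicate number and black bars at the medians. The R98S points of Psph lie above all WT points in both kinds of RNA, and those of Phgdh lie below all WT points in polysomal RNA only.

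Phgdh, the enzyme of the entry step (chromosome 3, 98313170 to 98339990, minus strand), ranged from 1339.8 to 3683 normalized counts in the 9 R98S total mRNA libraries, with a median of 2072. In the 8 WT libraries it ranged from 874 to 6782, with a median of 4175. All 9 R98S libraries lay under the WT median, but the ranges overlapped, and the lowest library of all was WT, clone 28 with number 2. Expressed on the log2 scale, the difference was -0.51 (SE 0.35 and adjusted p 0.313 by limma) and, with the replicate block, -0.59 (SE 0.23 and adjusted p 0.0572 by limma). It was also called lower with 1 value per clone (-0.54, adjusted p 0.0239), without number 2 (-0.93, adjusted p 0.0155) and without the single library of WT clone 28 with number 2 (-0.78, adjusted p 0.0619), within numbers 1 and 3 (adjusted p 0.0308 and 0.098), and by DESeq2 (adjusted p 0.098). In polysomal RNA Phgdh ranged from 2459.6 to 3298 in R98S (median 2592) and from 3575 to 5609 in WT (median 4869.7). Every R98S library was below every WT library there, and the log2 fold change was -0.80 (SE 0.14 and adjusted p 0.00158 by limma). Transcripts of other genes, above all the copy Gm7901, share 63.1% of the 50-base windows of Phgdh, and Gm7901 itself reached at most 7.31 normalized counts. Whether reads from these windows were lost at the mapping quality filter was not tested, and the low counts of Gm7901 do not settle it.

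Much of the spread of Phgdh in total mRNA went with the replicate number. In number 2 it had 874 to 2318 normalized counts in WT and 1339.8 to 2072 in R98S, a ratio of means of 1.01. In number 1 the WT libraries had 4712 and 6782 against 3097 to 3386 in R98S, and in number 3 the values were 3936 to 6178 against 1710.0 to 3683. R98S was therefore below WT, without overlap, in numbers 1 and 3 and not in number 2. Within WT clone 28 the highest Phgdh library had 7.76 times the value of the lowest over the 3 numbers. Over numbers 2 and 3, for which this clone has both kinds of RNA, its values differed 4.50-fold in total mRNA and 1.2-fold in polysomal RNA.

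Psat1, the aminotransferase (chromosome 19, 15904678 to 15947337, minus strand), ranged from 5307 to 9723 normalized counts in R98S total mRNA (median 6996.5) and from 4601 to 17339 in WT (median 11032). All 9 R98S libraries lay below the WT median and none lay below the lowest WT library. The log2 fold change of -0.51 (SE 0.23 and adjusted p 0.115 by limma) was not called, and with the replicate block it was -0.54 (SE 0.17 and adjusted p 0.0227 by limma). It was called lower with 1 value per clone (-0.51, adjusted p 0.0078), without number 2 (-0.79, adjusted p 0.0112), without WT clone 28 (-0.55, adjusted p 0.0934), and without the number 2 library of WT clone 28 or of WT clone 29 (-0.67 and -0.60, adjusted p 0.0209 and 0.0761). It was also called within number 3 (-1.23, adjusted p 0.0248), by edgeR (adjusted p 0.0684) and by DESeq2 (adjusted p 0.0344). In polysomal RNA the range was 8725 to 11668 in R98S (median 10060) and 11103 to 25880 in WT (median 14831), and 7 of 8 R98S libraries lay below all WT libraries. As a log2 fold change this was -0.63 (SE 0.18 and adjusted p 0.0372 by limma). This call was lost when any of the 3 R98S clones was left out (adjusted p 0.113 to 0.154), while the log2 fold change stayed between -0.64 and -0.61. It was also lost with 1 value per clone (-0.78, adjusted p 0.164), without number 1 (-0.62, adjusted p 0.252), with no filter on low values (-0.63, adjusted p 0.104) and with quantile normalization (-0.47, adjusted p 0.116). In total mRNA the ratio of means of R98S to WT was 0.836, 0.921 and 0.431 in numbers 1, 2 and 3.

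Psph, the phosphatase that releases serine (chromosome 5, 129765558 to 129787449, minus strand), ranged from 122.8 to 452 normalized counts in R98S total mRNA (median 249.9) and from 52.4 to 84.3 in WT (median 64.0). The 2 lowest R98S libraries were clones 35 and 13 with number 2, and even these were above the highest WT library. On the log2 scale R98S differed from WT by 1.97 (SE 0.24 and adjusted p 1.4e-05 by limma). Psph was called higher in total mRNA in 38 of 39 alternatives. The call was lost within number 2 (1.17, SE 0.32 and adjusted p 0.124 by limma), where 241 of all 11133 genes were called. In polysomal RNA Psph ranged from 370.1 to 803 in R98S (median 477) and from 68.1 to 128 in WT (median 115). R98S and WT were again apart, with a log2 fold change of 2.32 (SE 0.22 and adjusted p 4.4e-06 by limma). Mean R98S values were 6.45, 2.35 and 4.51 times the WT means in total mRNA of numbers 1, 2 and 3, and 5.04, 4.62 and 6.10 times in polysomal RNA. Within R98S clone 35 the total mRNA value varied 3.68-fold between numbers, more than within any WT clone (1.26-fold to 1.57-fold). In polysomal RNA the R98S libraries of number 3 had 680.4 to 803 normalized counts and those of numbers 1 and 2 had 370.1 to 496. Of the longest coding transcript of Psph, 26.1% overlaps exons of Cct6a, a chaperonin gene on the opposite strand. Cct6a was listed at 3.20 to 33.4 normalized counts in total mRNA and at most 3.97 in polysomal RNA. The study names a stranded library kit, but use of strand in counting is not given in the sources used here. Whether reads of Cct6a were counted for Psph was not tested, and the listed values of Cct6a do not settle it.

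The proportions of the pathway differed between genotypes. A ratio of 2 genes within a library is free of the scaling between libraries, and 5 ratios were tested in each kind of RNA (10 exact permutation tests over libraries, two-sided, adjusted together). Phgdh per Psph, both per kilobase, had a median of 54.1 in WT total mRNA (range 10.6 to 119) and of 7.59 in R98S (range 6.28 to 11.5). The ranges touched through 1 WT library, clone 28 with number 2, and the log2 ratio of Psph to Phgdh was higher in R98S by 2.49 (exact permutation p 8.23e-05, adjusted p 0.000411). In polysomal RNA Phgdh per Psph had a median of 42.3 in WT (range 29.1 to 62.3) and 5.89 in R98S (range 2.88 to 6.60), with a log2 difference of 3.12. The exact permutation p of 0.000333 (adjusted p 0.000833) is the smallest that 3003 assignments can give. Permuted within replicate numbers, this ratio had exact permutation p of 0.0005 in total mRNA and 0.00208 in polysomal RNA (adjusted p 0.0025 and 0.00417). None of the 10 ratios changed its side of an adjusted p of 0.1 when permuted in that way. Whether reads lost from the shared windows of Phgdh lowered the medians of Phgdh per Psph was not tested.

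Psat1 per Psph, both per kilobase, gave no overlap between genotypes in either kind of RNA. Its median was 121 in WT and 17.2 in R98S in total mRNA, and 99.4 and 14.001 in polysomal RNA. With the length of all exons the medians in total mRNA were 102.8 in WT and 14.4 in R98S for Phgdh per Psph, and 187 and 26.4 for Psat1 per Psph, while the differences between genotypes do not depend on length. The log2 ratio of Psph to Psat1 was higher in R98S by 2.49 in total mRNA (exact permutation p 4.11e-05, the smallest of 24310 assignments, adjusted p 0.000411) and by 2.95 in polysomal RNA (exact permutation p 0.000333, adjusted p 0.000833). Clone means of that ratio in total mRNA were -4.72, -4.75 and -4.89 in R98S clones 11, 13 and 35, and -7.15, -7.41 and -7.23 in WT clones 28, 29 and 36. Phgdh relative to Psat1 differed by less than the spread between libraries, with log2 differences of -0.0011 in total mRNA (exact permutation adjusted p 0.996) and -0.17 in polysomal RNA (adjusted p 0.447).

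**Figure D3:**
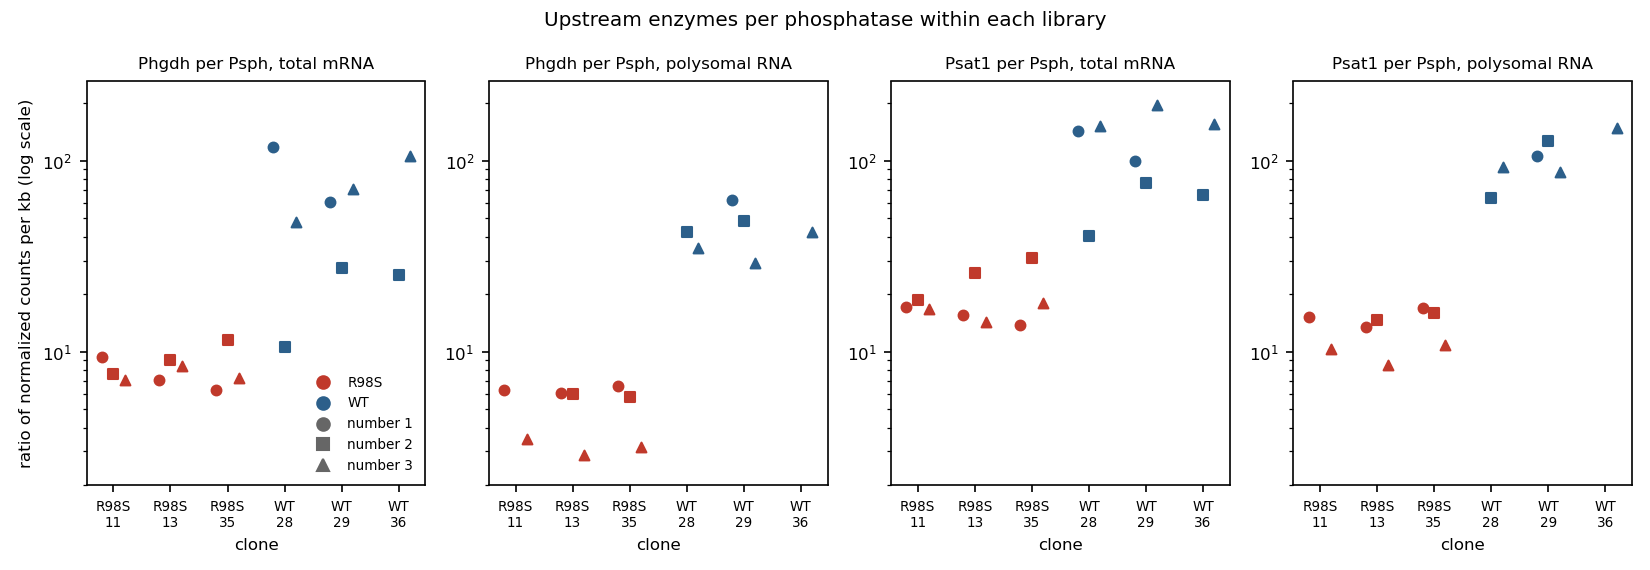
Phgdh per Psph and Psat1 per Psph, as ratios of normalized counts per kilobase (log axis), by clone, in total mRNA and polysomal RNA, with symbols for the replicate number. R98S libraries lie at 2.88 to 11.5 for Phgdh per Psph, and 1 WT total mRNA library, clone 28 with number 2, lies at 10.6 among them.

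The 3 carriers had lower mean values in R98S in both kinds of RNA, but few of these differences were called. The total mRNA call was that of Slc1a4. In polysomal RNA Slc1a4 and Slc38a1 were not called without the block and were called with it, and over all alternatives with a test they were called in 9 and 6 of 33. Slc38a2 was called in neither kind of RNA with or without the block. In polysomal RNA all 3 carriers also had lower values in number 3 than in the other numbers in both genotypes.

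Slc1a4 (ASCT1; chromosome 11) ranged from 146 to 671 normalized counts in R98S total mRNA (median 279.8) and from 338 to 847 in WT (median 528). A total of 5 of 9 R98S libraries lay below all WT libraries, and the ratio of means was 0.770, 0.746 and 0.306 in numbers 1, 2 and 3. Expressed on the log2 scale, the difference was -0.86 (SE 0.26 and adjusted p 0.0218 by limma). Without number 3 it was -0.40 (adjusted p 0.418), and without R98S clone 35 or WT clone 29 it was -0.58 and -0.66 (adjusted p 0.118 and 0.136 by limma). In polysomal RNA Slc1a4 had 149 to 195 normalized counts in the R98S libraries of numbers 1 and 2 and 418 to 496 in WT. These sets were apart, with 1 WT library in number 1 and 2 in number 2. In number 3 it had 69.4 to 111 in R98S and 101 to 190.4 in WT, which overlapped. The polysomal log2 fold change was -0.96 (SE 0.37 and adjusted p 0.132 by limma), and -1.11 (SE 0.20 and adjusted p 8.9e-04 by limma) with the replicate block. It was also called without the number 3 library of WT clone 28 or of WT clone 29 (-1.22 and -1.14, adjusted p 0.0437 and 0.0827).

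In total mRNA Slc38a1 (SNAT1) ranged from 2967 to 4132 normalized counts in R98S (median 3653) and from 2660.0 to 4696 in WT (median 3733). The log2 fold change there was -0.080 (SE 0.11 and adjusted p 0.628 by limma), and -0.15 to -0.037 when 1 library was left out, the former without WT clone 36 with number 2 and the latter without WT clone 29 with number 1. In polysomal RNA it had 1435 to 1733 in the R98S libraries of numbers 1 and 2 against 2914 to 3481 in WT, and 635 to 1065 against 1244 to 1639 in number 3. R98S lay below WT without overlap within each number, although the WT values of number 3 reached down into the R98S range of the other numbers. Number 1 holds 3 R98S libraries and 1 WT library, number 2 holds 2 and 2, and number 3 holds 3 and 3. With so few libraries a gap within a number says little, and the share of all genes with such gaps was not counted. As a log2 fold change this was -0.76 (SE 0.29 and adjusted p 0.125 by limma), and -0.87 (SE 0.13 and adjusted p 1.7e-04 by limma) with the replicate block. It was also called without the number 3 library of WT clone 28 (-0.91, adjusted p 0.0762). The polysomal to total ratio of Slc38a1 had a log2 fold change of -0.57 (SE 0.30 and adjusted p 0.827 by limma) and, with the block, of -0.63 (SE 0.17 and adjusted p 0.149 by limma), so the difference between the kinds of RNA was not called.

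Slc38a2 (SNAT2) ranged from 3259 to 6495 normalized counts in R98S total mRNA (median 3509.6) and from 2925 to 7266 in WT (median 4684). The R98S range lay inside that of WT, and the log2 fold change was -0.29 (SE 0.19 and adjusted p 0.291 by limma). The ratio of means was 0.932 and 0.985 in numbers 1 and 2, with overlap, and 0.556 in number 3, where R98S lay below WT without overlap (-0.83, adjusted p 0.0432 by limma). Without number 3 the log2 fold change was 0.014 (adjusted p 0.977). In polysomal RNA it ranged from 837 to 1869.8 in R98S (median 1109) and from 762 to 2439 in WT (median 1421), with a log2 fold change of -0.22 (SE 0.28 and adjusted p 0.747 by limma). It was -0.38 without WT clone 28 with number 3, -0.37 without WT clone 36 with number 3, -0.13 without WT clone 28 with number 2, -0.090 and -0.043 without WT clone 29 with numbers 2 and 1, and 0.17 without WT clone 29 as a whole, none of them called. Without number 3 it was called lower (-0.68, adjusted p 0.0458). The ratio of means in polysomal RNA was 0.499 and 0.776 in numbers 1 and 2 and 1.08 in number 3. Relative to Slc38a2, Slc38a1 was lower in R98S polysomal RNA, with a log2 difference of -0.54 (exact permutation p 0.00433, adjusted p 0.00722), but the difference was 0.12 in the other direction in number 1, which has 1 WT library. In total mRNA that ratio differed by 0.21 (exact permutation adjusted p 0.25).

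The subunits of serine palmitoyltransferase, the enzyme that starts sphingolipid synthesis by condensing serine with palmitoyl-CoA, differed in their proportions between genotypes. Sptlc1 (chromosome 13) ranged from 442 to 769 normalized counts in R98S total mRNA (median 641) and from 378 to 758 in WT (median 676), a log2 fold change of -0.027 (SE 0.13 and adjusted p 0.906 by limma). Leaving out 1 library moved this value between -0.13, without WT clone 36 with number 2, and 0.034, without R98S clone 13 with number 3, and none of these was called. In polysomal RNA it had 468 to 704.5 in R98S (median 557) and 636 to 812 in WT (median 721), and 7 of 8 R98S libraries lay below all WT libraries. The log2 fold change of -0.36 (SE 0.13 and adjusted p 0.110 by limma) passed the threshold with the replicate block (-0.37, SE 0.11 and adjusted p 0.0257 by limma) and without R98S clone 35 with number 2 (-0.41, adjusted p 0.0772).

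Sptlc2 (chromosome 12), the catalytic subunit, ranged from 1690.0 to 2871 normalized counts in R98S total mRNA (median 2199.7) and from 1276 to 2040.4 in WT (median 1726). In R98S 5 of 9 libraries lay above all WT libraries, and the log2 fold change was 0.32 (SE 0.11 and adjusted p 0.0426 by limma). This call was lost without R98S clone 11, R98S clone 35 or WT clone 29 (log2 fold changes of 0.30, 0.22 and 0.27, adjusted p 0.156, 0.199 and 0.146 by limma). It was also lost with 1 value per clone (0.33, adjusted p 0.114), without number 1 (0.31, adjusted p 0.111), without number 2 (0.21, adjusted p 0.286) and over the 14 matched cultures (0.31, adjusted p 0.125). In polysomal RNA the range was 1720.4 to 2545 in R98S (median 2122) and 1361 to 2187 in WT (median 1729.9), with a log2 fold change of 0.28 (SE 0.15 and adjusted p 0.306 by limma), of 0.043 without WT clone 29 (adjusted p 0.916), and of 0.32 (SE 0.13 and adjusted p 0.0763 by limma) with the replicate block. Sptlc1 per Sptlc2, both per kilobase, had a median of 0.978 in WT and 0.737 in R98S total mRNA, and of 1.05 and 0.695 in polysomal RNA. The log2 ratio was lower in R98S, with a difference of -0.35 in total mRNA (exact permutation p 0.00901, adjusted p 0.0129) and of -0.64 in polysomal RNA (exact permutation p 0.00133, adjusted p 0.00266), with overlapping ranges in both. Both differences lost the threshold without WT clone 29 (adjusted p 0.135 and 0.121). Clone means of this log2 ratio in total mRNA were -1.77, -1.70 and -1.88 in R98S clones 11, 13 and 35. They were -1.48, -1.19 and -1.72 in WT clones 28, 29 and 36, so WT clone 36 lay among the R98S clones. In polysomal RNA the clone means were apart, at -1.95 to -1.85 in R98S and -1.61 to -0.97 in WT.

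Cbs, the entry enzyme of transsulfuration, was at the detection limit. It had 0 reads in 25 of 31 libraries and at most 2 reads in the others, with 6 reads summed over total mRNA and 2 over polysomal RNA. A count of 0 allows up to 3 reads, which corresponds to 1.81 to 5.14 normalized counts depending on the library, a limit that covers counting error only. A difference between genotypes was not detectable at this depth.

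**Figure D4:**
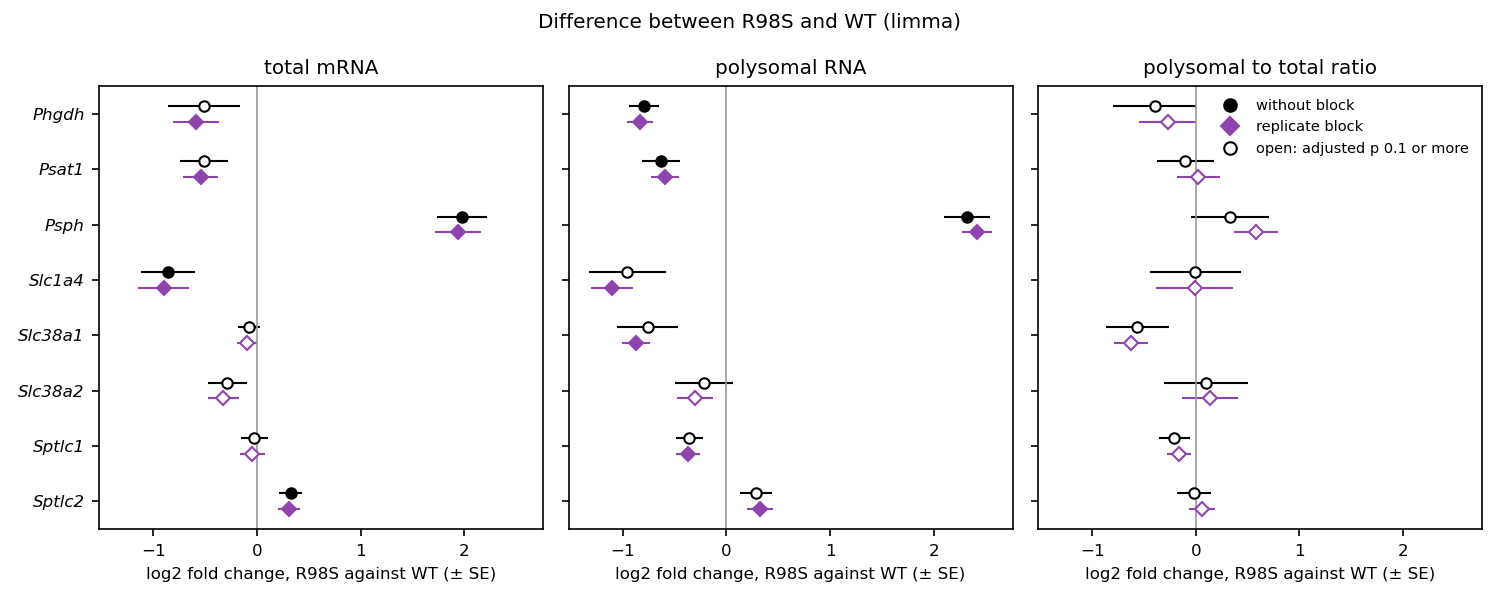
Log2 fold change of R98S against WT with its standard error for 8 genes in total mRNA, polysomal RNA and their ratio, from limma without (circles) and with (diamonds) the replicate block, where filled symbols mark an adjusted p under 0.1. Psph stands at 1.97 and 2.32 in the first 2 panels, and no symbol is filled in the panel of the ratio.

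The ratio of polysomal to total RNA (TE) within a culture was called for none of the 8 genes by limma, and none had an unadjusted p under 0.05. Over all genes 0.047% were called, and 687 of 10627 had an unadjusted p under 0.05. An edgeR test of the interaction also called none of the 8, and with the replicate block none was called (background 0.433%). With the block 2 of the 8, Psph and Slc38a1, had an unadjusted p under 0.05, as did 1281 of all 10627 genes. Cultures of the genotypes overlapped in TE for all 8 genes (0.169% of all genes did not overlap). Levels of TE are relative, since the tables were normalized separately. On that scale Psph had a mean log2 TE of 0.99 ± 0.82 (SD, 8 R98S cultures) against 0.66 ± 0.40 (SD, 6 WT cultures), and Psat1 of 0.48 ± 0.44 against 0.59 ± 0.58. In numbers 1, 2 and 3 the Psph means were 0.057, 1.70 and 1.45 in R98S and 0.21, 0.43 and 0.96 in WT. The direction thus turned in number 1, which has 1 WT culture. The Psph difference was 0.33 without the block and 0.58 with it (adjusted p 0.936 and 0.305 by limma). Slc38a2 had the lowest TE, -1.85 ± 0.46 in R98S and -1.95 ± 1.05 in WT, followed by Slc38a1 in R98S at -1.52 ± 0.38 and by Slc1a4 in WT at -1.21 ± 1.28. The SPT subunits lay near 0, with Sptlc1 at -0.12 ± 0.21 in R98S and 0.086 ± 0.21 in WT. The 3 carriers therefore stood below the 3 synthesis enzymes in mean TE in both genotypes.

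The calls of the lists that follow stand beside 30.3% of all genes called in total mRNA and 13.5% in polysomal RNA. The list of glycine and one-carbon enzymes (6 tested) had 1 call in each kind of RNA, Gldc, the glycine decarboxylase, which was higher in both kinds of RNA. Gldc had 30.3 to 187 normalized counts in R98S total mRNA and 5.02 to 46.3 in WT, a log2 fold change of 1.96 (SE 0.41 and adjusted p 0.00200 by limma), and 2.54 in polysomal RNA (SE 0.43 and adjusted p 0.00113 by limma), where the 53.3 to 113 of R98S did not overlap the 3.97 to 32.4 of WT. Shmt2, the mitochondrial hydroxymethyltransferase that uses serine, had log2 fold changes of -0.14 (limma adjusted p 0.725) and -0.33 (limma adjusted p 0.350), the latter -0.37 (SE 0.16 and adjusted p 0.0986 by limma) with the replicate block. The block also called Amt in total mRNA (-0.54) and Gcsh in polysomal RNA (-0.43), both of the glycine cleavage system, lower. The list median was 0.026 in total mRNA and -0.23 in polysomal RNA.

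Of 14 further serine carriers 9 were tested, and the calls were none in total mRNA and 1 lower in polysomal RNA, Slc1a5 (ASCT2), with -0.58 (SE 0.19 and adjusted p 0.0695 by limma). The list medians were -0.13 and -0.083. Slc38a7, a lysosomal carrier, differed in TE by -0.71 on the log2 scale (SE 0.17 and adjusted p 0.299 by limma), and by -0.76 (SE 0.13 and adjusted p 0.0312 by limma) with the replicate block, which also called it lower in polysomal RNA (-0.63, adjusted p 0.0124 by limma, against 0.247 without the block). Of 13 further sphingolipid genes 10 were tested, with 3 higher and 2 lower in total mRNA and 2 higher and 2 lower in polysomal RNA (list medians 0.15 and 0.18). Kdsr, the reductase that follows serine palmitoyltransferase, was higher by 0.70 (SE 0.13 and adjusted p 6.2e-04 by limma) and 0.77 (SE 0.16 and adjusted p 0.00455 by limma). Cers2 and Cers4, ceramide synthases, were lower in total mRNA, with log2 fold changes of -0.56 and -0.66 (limma adjusted p 0.00304 and 0.00101).

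Among 14 other genes that use serine 12 were tested, with 3 higher and 3 lower in total mRNA and 1 higher in polysomal RNA (list medians 0.045 and -0.16). Serinc2, of a family named for serine incorporation, was higher by 1.42 (SE 0.19 and adjusted p 3.2e-05 by limma) and 1.71 (SE 0.21 and adjusted p 6.1e-05 by limma), and Sars, the cytosolic seryl-tRNA synthetase, was lower in total mRNA, with a log2 fold change of -0.63 (SE 0.15 and adjusted p 0.00617 by limma) and was called lower in polysomal RNA with the block (-0.36, adjusted p 0.0667 by limma, against 0.252 without). The 5 glycolytic genes around the branch to serine had 2 lower in total mRNA (Pgam1 -0.75, Pgk1 -0.65) and 1 in polysomal RNA (Eno1 -0.59), with list medians of -0.51 and -0.39. With the replicate block all 5 were called lower in total mRNA, where 38.4% of all genes were called, and 3 in polysomal RNA, where 30.9% were. Of 9 genes of the ATF4 axis 8 were tested, with 3 lower in total mRNA (Cebpb, Cebpg, Trib3) and 2 in polysomal RNA (Asns, Trib3) and none higher. Asns had -0.56 in total mRNA (adjusted p 0.281 by limma) and was called with the block (-0.64, adjusted p 0.0708 by limma). The list medians were -0.61 and -0.30, and Atf4 itself had -0.11 (SE 0.28 and adjusted p 0.823 by limma) and -0.18 (SE 0.25 and adjusted p 0.767 by limma). In TE none of the genes of these 6 lists was called without the block.

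Deviations from the genotype means showed which genes varied together between libraries, as a description over 17 total mRNA libraries and 14 polysomal libraries from 6 clones that also share replicate numbers. Phgdh and Psat1 had r = 0.87 in total mRNA and 0.042 in polysomal RNA. Slc38a1 and Slc38a2 had 0.66 and 0.85, and Slc1a4 and Slc38a1 0.60 and 0.84. Psph had r of 0.30 with Phgdh and 0.35 with Psat1 in total mRNA, and of -0.83 with Slc38a1 in polysomal RNA. Of the 28 pairs, 25 were positive in total mRNA and 14 in polysomal RNA.

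Among 9255 other genes with a mean of at least 100, those most like Psph over the 17 total mRNA libraries were Hvcn1 (r = 0.96), Fcgr3 (0.95), Smap2 (0.95), Rnf20 (0.94) and Gdpgp1 (0.93), and those most opposite were Spata13 (-0.96), Apobec1 (-0.95), Psma8 (-0.95), Phldb1 (-0.94) and Gclm (-0.94). Over the 14 polysomal libraries r was 0.81, 0.77, 0.79, 0.61 and 0.90 for the former and -0.97, -0.89, -0.52, -0.71 and -0.62 for the latter. Libraries of both genotypes enter these values, so a difference between the genotypes is part of them.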

How the data were processed

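Total mRNA and polysomal RNA values were deposited as normalized counts, that is counts per gene divided by a size factor per library, a scaled signal. Per the labels and the study's methods, the authors trimmed the first base, aligned reads with TopHat2 2.0.11, kept a mapping quality of at least 10, counted with HTSeq and normalized with DESeq2, separately for each table. All values were whole multiples of 1 read within a tolerance of 0.01, so reads were recovered for the count tests. Here log2(value + 1) was compared with limma 3.58.1 (empirical Bayes with trend, genes with a mean of at least 10, Benjamini-Hochberg over all genes, a call at an adjusted p under 0.1, two-sided), TE on matched differences over 14 cultures. Alternatives used edgeR 4.0.16 and DESeq2 1.42.0, other scalings, filters and pseudocounts, and subsets of libraries. Fits were tested on simulated data. Libraries of a group differed beyond sampling noise, by a chi-square per gene between 2 libraries. The closest pair was polysomal RNA of R98S clone 13 with numbers 1 and 2, at 4.56, and the next closest pair had 10.1. The total mRNA of the same 2 cultures had 69.5. Both polysomal libraries entered the tests as separate libraries. The rule named all 9 genes and the 5 genes most and least like Psph. Genes of the 6 lists could be named when called in a comparison or when their list had under 8 genes, and not all of these are named. Genes and lists were chosen with earlier results of these data known. Coordinates and lengths are those of GENCODE M21.

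Replicate numbers pair the libraries: deviations of R98S and WT with the same number correlated at 0.481 to 0.867 over genes in every number and comparison, although the labels do not say what a number shares. The fit with the replicate block is therefore given beside the values or list counts of named genes whose call it changes.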

Additional observations from a re-analysis of the deposited data

Results flagged for a closer look

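Of 68 groups of libraries examined for a single value far from the rest, 4 held one, and chance gives about 1 in 20. Sptlc1 in total mRNA of WT clone 36 with number 2 was 378.4 normalized counts, while the other WT libraries lay between 601.7 and 758.3, and without it the log2 fold change of Sptlc1 was -0.13 in place of -0.027. The log2 TE of Sptlc2 in R98S clone 13 with number 3 was 0.55, with the next R98S culture at 0.079. In polysomal RNA the log2 ratio of Slc38a1 to Slc38a2 in WT clone 29 with number 1 was 0.26, against 0.65 to 0.83 in the other WT libraries. The log2 ratio of Sptlc1 to Sptlc2 in polysomal RNA of R98S clone 13 with number 3 was -2.44, against -1.9997 to -1.62 in the other R98S libraries.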

How the results depend on the processing

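In total mRNA 3 of the 8 genes were called (30.3% of all genes), against 5 with DESeq2 (31.9%), 5 with the replicate block (38.4%), 0 within number 2 (2.16%), 5 within number 3 (9.4%), 1 without R98S clone 35 (26.8%) and 1 without WT clone 29 (24.5%). With 1 value per clone 4 were called (28.1%; Psph higher, and Phgdh, Psat1 and Slc1a4 lower). Leaving out 1 library gave 3 to 5, beside 2814 to 3878 of all 11133 genes. The 5 were called without WT clone 28 replicate 2, beside 3074 of all genes. In polysomal RNA 3 were called (13.5%), against 6 with DESeq2 (17.8%), 5 with edgeR (13.5%), 7 with the replicate block (30.9%) and 7 without number 3 (19%), a subset chosen after seeing the data. The count was 2 with 1 value per clone (7.01%), without number 1 (5.68%), with no filter (7.61%) and without R98S clone 11, 13 or 35 (9.03%, 10.5% and 7.68%). When 1 polysomal library was left out the count was 3 to 5, beside 1131 to 1664 of all 10707 genes. The 5 were called without WT clone 28 replicate 3, beside 1131 of all genes. The replicate block kept the TE count of the 8 genes at 0. Log2 ratios moved within single numbers: Psph to Phgdh in total mRNA was 1.06 within number 2, and Psph to Psat1 was 1.25 within number 2 and 3.34 within number 3, and 3.43 within number 3 in polysomal RNA. Slc38a1 to Slc38a2 was 0.31 in total mRNA without WT clone 28, where it passed the threshold, and 0.12 within number 1 in polysomal RNA, where the direction turned. Without WT clone 29, Sptlc1 to Sptlc2 was -0.21 in total mRNA and -0.35 in polysomal RNA. The causes were not tested. Over all genes, polysomal calls were 1449, against 3307 with the replicate block and 751 with 1 value per clone, and TE calls were 5, against 46 with the replicate block and 109 without WT clone 29 replicate 1. Among genes without a call, 60 alternatives turned the sign of a log2 fold change, and 0 did so with a call.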
